A study of Mus musculus with 16 samples.

Results

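The 29 transcripts described here lie at 9 mouse genes of bile acid, sterol and drug metabolism, namely Cyp7a1, Baat, Abca1, Slco1a1, Cyp3a13, Cyp2a5, Cyp2c29, Por and Aldh1a7. They are all the listed transcripts, 29 of 51024, whose interval overlaps the body of one of these genes or lies within 6 kb of it in GENCODE M21 on the GRCm38 build. RNA sequencing covered 16 liver libraries of C57BL/6J mice in 4 groups of 4, and the labels do not give the mouse behind each library. A resveratrol group had a high-fat diet with 100 mg/kg resveratrol by gavage per day, a metformin group had the same diet with 200 mg/kg metformin by gavage per day, a high-fat group had that diet alone, and an ordinary-feed group had ordinary feed. The labels name no gavage for the high-fat and ordinary-feed groups, so in comparisons with them the drug and the gavage cannot be told apart. The drug groups differ from ordinary feed in diet as well, so there diet, drug and gavage cannot be told apart. The age on every label is postnatal day 21, without saying whether that is when livers were taken or when feeding began, and the labels give no sex, cage, litter or batch. In the titles, the high-fat libraries share 1 prefix and each other group carries more than 1. The sources used here do not say what the prefix marks, so any effect of it and of the diet cannot be told apart.

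Bile acids are made from cholesterol in hepatocytes, conjugated to taurine or glycine, secreted into bile and taken up again from portal blood. Their synthesis is set largely at Cyp7a1, whose transcription is restrained when bile acids return to the liver. Drugs and other foreign compounds are oxidised in the same cells by cytochrome P450 enzymes, which draw electrons from NADPH through the reductase Por. Resveratrol is a polyphenol of grapes and other plants, and metformin is given against high blood glucose.

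The deposited values are FPKM, fragments scaled by transcript length and by library size, for transcripts listed as long non-coding. Reads were not stated to be assigned by strand, so a transcript that overlaps a coding gene may share reads with that gene's RNA, which was not tested, and a gene symbol below gives a position and not the coding gene's level. The library totals behind the FPKM scaling, worked back from the values, were 17.2 to 31.1 M reads and may differ from the reads sequenced. Of these totals, 15.7% to 23.6% fell on listed transcripts. A single read on a transcript of 1 kb was worth 0.0321 to 0.0580 FPKM. High-fat library 4 stood apart. A median ratio to the geometric mean of all 16 libraries was taken over transcripts above 0 in every library. It was 0.735 in high-fat library 4, against 0.901 to 1.14 in the other libraries. In that library 4286 transcripts reached 1 FPKM, against 5169 to 6505 elsewhere. Transcripts linked to hepatocyte marker genes summed to 122 to 171 FPKM in resveratrol livers, 110.3 to 159 in metformin livers, 103 to 168 in high-fat livers and 82.5 to 119 in ordinary-feed livers. Those linked to markers of cholangiocytes, macrophages, endothelial cells, stellate cells, lymphocytes and erythroid cells summed to at most 4.84 FPKM per list in any library.

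Of the 29 transcripts, 22 carried NONCODE IDs, 6 Ensembl IDs and 1 was an assembled transcript, MSTRG.21777.1. By position, 13 overlapped the gene body, 9 lay upstream and 7 downstream. Por had 7 transcripts, Baat and Cyp2a5 had 5 each, Cyp7a1 had 3, Abca1, Cyp3a13, Cyp2c29 and Aldh1a7 had 2 each, and Slco1a1 had 1. They are not independent readings, since 16 of them shared interval bases with another in 15 pairs. Only 10 transcripts reached 1 FPKM in at least 4 libraries and were tested, 1 per gene and both at Abca1. The other 19 averaged 0.0168 to 0.909 FPKM over the 16 libraries, and their highest single value was 4.65 FPKM.

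**Figure D1:**
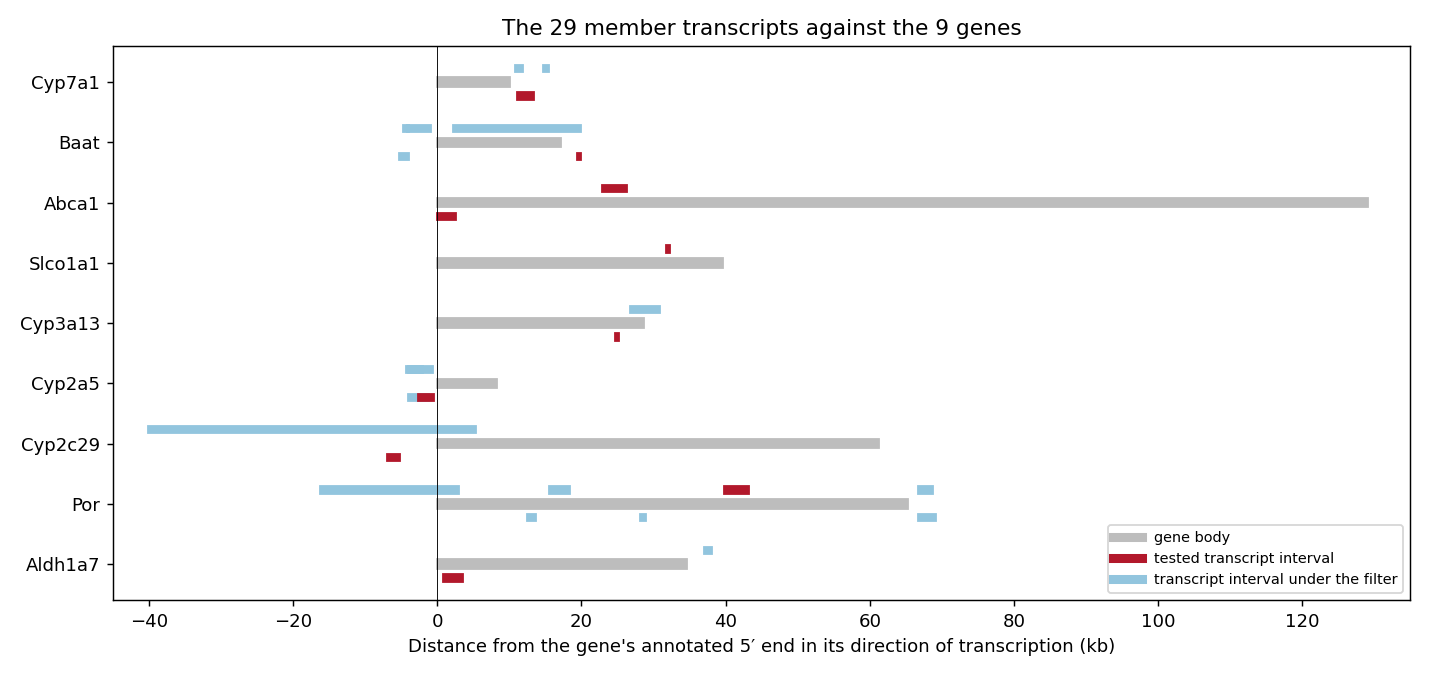
Positions of the 29 transcripts (red for the 10 tested, blue for the 19 under the filter) against the bodies of the 9 genes (grey), in kb from each gene's annotated 5′ end along its direction of transcription. The tested transcripts at Abca1, Slco1a1, Cyp3a13, Por and Aldh1a7 lay inside the gene body, and those at Cyp7a1, Baat, Cyp2a5 and Cyp2c29 lay outside it.

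A few sequences show why a transcript here cannot be read as the coding gene at which it lies. The tested transcript at Cyp3a13, ENSMUST00000121449, is the processed pseudogene Gm15502, 208 bases at chr5:137896752-137896959 on the minus strand, within an intron of Cyp3a13. It is printed with the bases that differ from the Vdac1 transcript, or have no counterpart in it, in capitals. Vdac1 codes for an anion channel of the mitochondrial outer membrane.
Gm15502: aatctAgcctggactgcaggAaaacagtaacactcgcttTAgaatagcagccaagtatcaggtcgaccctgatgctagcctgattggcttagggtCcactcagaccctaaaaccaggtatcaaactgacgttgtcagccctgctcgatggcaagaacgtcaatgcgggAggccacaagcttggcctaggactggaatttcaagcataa
It matched Vdac1 at 202 of its 208 bases with 6 that were mismatched or had no counterpart, and it lacks 27 bases that Vdac1 has within the alignment, which leaves 86.0% identity over 235 aligned columns. The tested transcript at Slco1a1, ENSMUST00000157279, is Gm22036, a small RNA of GENCODE type misc_RNA with 215 bases at chr6:141915078-141915292 on the minus strand, also intronic.
Gm22036: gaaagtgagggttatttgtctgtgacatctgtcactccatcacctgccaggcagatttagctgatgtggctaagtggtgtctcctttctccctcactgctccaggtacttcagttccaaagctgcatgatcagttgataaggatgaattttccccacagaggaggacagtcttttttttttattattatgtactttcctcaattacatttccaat
The second transcript at Cyp2c29, ENSMUST00000176493, is a processed transcript of the pseudogene Cyp2c53-ps. Its first exon, 207 bases at chr19:39229254-39229460 on the plus strand, is shown with capitals where it differs from the Cyp2c29 transcript or could not be aligned to it.
Cyp2c53-ps exon 1: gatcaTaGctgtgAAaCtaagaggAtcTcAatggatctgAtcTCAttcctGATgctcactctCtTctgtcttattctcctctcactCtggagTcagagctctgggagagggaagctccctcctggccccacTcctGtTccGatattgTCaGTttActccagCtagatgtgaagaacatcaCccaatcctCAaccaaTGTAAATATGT
Of those bases, 164 were identical to Cyp2c29 and 43 were not. These sequences come from the GENCODE M21 transcripts. The assembled and NONCODE transcripts are described by coordinates only.

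Of the 9 genes, 7 had a promoter sequence in the RefSeq table for GRCm38.p6, and Cyp7a1 and Baat did not. The 250 bases before the RefSeq start are shown for Abca1 and Cyp2c29, the gene with a transcript that begins at its start and the gene whose 6 kb window holds the largest difference. Capitals mark matches on either strand to AGGTCA and AGTTCA, core letters of nuclear receptor sites, and to TATAAA, the TATA box core.
Abca1 promoter, chr4:53159896-53160145, minus strand: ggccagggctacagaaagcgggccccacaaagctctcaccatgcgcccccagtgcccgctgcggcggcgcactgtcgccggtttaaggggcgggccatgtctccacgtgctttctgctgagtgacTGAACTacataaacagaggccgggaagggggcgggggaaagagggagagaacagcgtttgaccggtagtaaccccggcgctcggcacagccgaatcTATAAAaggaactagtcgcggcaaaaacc
Cyp2c29 promoter, chr19:39286835-39287084, plus strand: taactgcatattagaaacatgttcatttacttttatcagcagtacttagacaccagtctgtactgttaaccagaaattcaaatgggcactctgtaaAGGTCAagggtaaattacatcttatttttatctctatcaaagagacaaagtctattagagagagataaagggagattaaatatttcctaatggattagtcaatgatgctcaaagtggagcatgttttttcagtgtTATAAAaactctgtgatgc
The Abca1 promoter held AGTTCA on the strand opposite the gene, with its first base 125 bases before the start, and TATAAA at 29 bases. The Cyp2c29 promoter held AGGTCA at 154 bases and TATAAA at 19 bases before the start. Cyp2a5 held TATAAA at 29 bases, Aldh1a7 held it at 244 bases, Slco1a1 had 4 matches, and Cyp3a13 and Por had none. Among all 32851 promoters of that length, 14.0% held AGGTCA, 11.8% AGTTCA and 12.4% TATAAA on either strand. No matches overlapped each other in the sequences shown. A match is a run of letters and was not tested as a site.

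Between resveratrol and ordinary-feed livers, 1 of the 10 tested transcripts passed the test, MSTRG.21777.1 beside Cyp2c29. Cyp2c29 is a P450 of drug and fatty acid oxidation whose mouse gene is a known target of the nuclear receptor CAR. MSTRG.21777.1 had 15.99, 14.7, 8.19 and 13.6 FPKM in resveratrol livers, 12.3, 1.00, 0.383 and 2.91 FPKM in metformin livers, 4.28, 1.80, 0.643 and 0.536 FPKM in high-fat livers, and 0, 1.49, 0 and 1.02 FPKM in ordinary-feed livers. All 4 resveratrol libraries lay above every high-fat and ordinary-feed library, while 1 metformin library lay within the resveratrol range. The reads behind these values numbered 115, 120, 58 and 106 in resveratrol livers, 98, 6, 3 and 22 in metformin livers, 33, 19, 5 and 4 in high-fat livers, and 0, 13, 0 and 7 in ordinary-feed livers. The ordinary-feed values therefore rest on few reads and 2 of them on none.

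Differences were tested with limma on log2(FPKM + 1) over the 7455 transcripts that passed the filter, and a transcript was called with a Benjamini-Hochberg adjusted p under 0.05 over all of them. Fold changes are log2 values on that scale, which understates changes of low transcripts. Between resveratrol and ordinary feed, 0.282% of all tested transcripts were called (0.148% higher) and in 9.95% the groups did not overlap (4.43% higher), against 1 and 3 of the 10 members, all higher. The members were chosen with earlier results of these data known, so the member counts are a description and not an independent comparison with those shares. MSTRG.21777.1 was higher in resveratrol livers by 3.20 (SE 0.59, limma adjusted p = 0.0381), averaging 13.1 ± 3.43 FPKM in resveratrol livers and 0.628 ± 0.750 FPKM in ordinary-feed livers (SD, n = 4 each). The call was kept without resveratrol library 3 (limma adjusted p = 0.0480) and lost without any other library of the 2 groups, with fold changes of 3.01 to 3.44. It was also lost with a pseudocount of 0.1 and with no filter on low values, and over all 14 alternatives the limma adjusted p ran between 0.00999 and 0.116.

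Against high fat alone, MSTRG.21777.1 had a fold change of 2.48 in resveratrol livers (SE 0.59, limma adjusted p = 0.111), which did not pass the threshold although the groups did not overlap. In that comparison 0.0805% of tested transcripts were called and in 7.94% the groups did not overlap. Resveratrol against metformin gave 1.99 (SE 0.59, limma adjusted p = 0.776), with overlapping groups. Metformin livers averaged 4.14 ± 5.52 FPKM and high-fat livers 1.81 ± 1.74 FPKM (SD, n = 4 each), a fold change of 0.49 (SE 0.59, limma adjusted p = 0.854). The metformin average rests on library 1, and without that library the fold change against high fat was -0.16. Against ordinary feed, MSTRG.21777.1 had a fold change of 0.72 in high-fat livers (SE 0.59, limma adjusted p = 0.414). In metformin livers it was 1.21 (SE 0.59, limma adjusted p = 0.268). The called comparison, resveratrol against ordinary feed, differs in diet, drug and gavage, which cannot be told apart. The 4 groups share controls, so these comparisons are not independent of each other.

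MSTRG.21777.1 was listed with a length of 340 bases in a multi-part interval at chr19:39262434-39264250. This interval is 5.155 kb before the Cyp2c29 body of GENCODE M21, whose 5′ end is that of an alternative transcript, and 22.84 kb before the RefSeq start of Cyp2c29 at position 39287085. It lies inside the pseudogene Cyp2c53-ps and overlaps 0 GENCODE exons. The Cyp2c53-ps transcript ENSMUST00000176493, which spans it at chr19:39229254-39274737, was under the filter and is described after its values were seen. ENSMUST00000176493 had 1.90, 1.91, 0.932 and 0.575 FPKM in resveratrol livers, 0.471, 0.983, 0.0902 and 0.405 FPKM in metformin livers, 0.611, 0.223, 0.0607 and 0.316 FPKM in high-fat livers, and 0, 0.243, 0 and 0.275 FPKM in ordinary-feed livers. Both transcripts were at 0 in the same 2 ordinary-feed libraries and had their highest values in resveratrol libraries 1 and 2. Their log2 values correlated with Pearson's r = 0.79 over 16 libraries, which share depth and, for these transcripts, part of their interval. The sources used here do not say how reads matching both Cyp2c53-ps and Cyp2c29 were assigned, so the levels of both transcripts are uncertain in that respect, and shared reads were not tested.

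**Figure D2:**
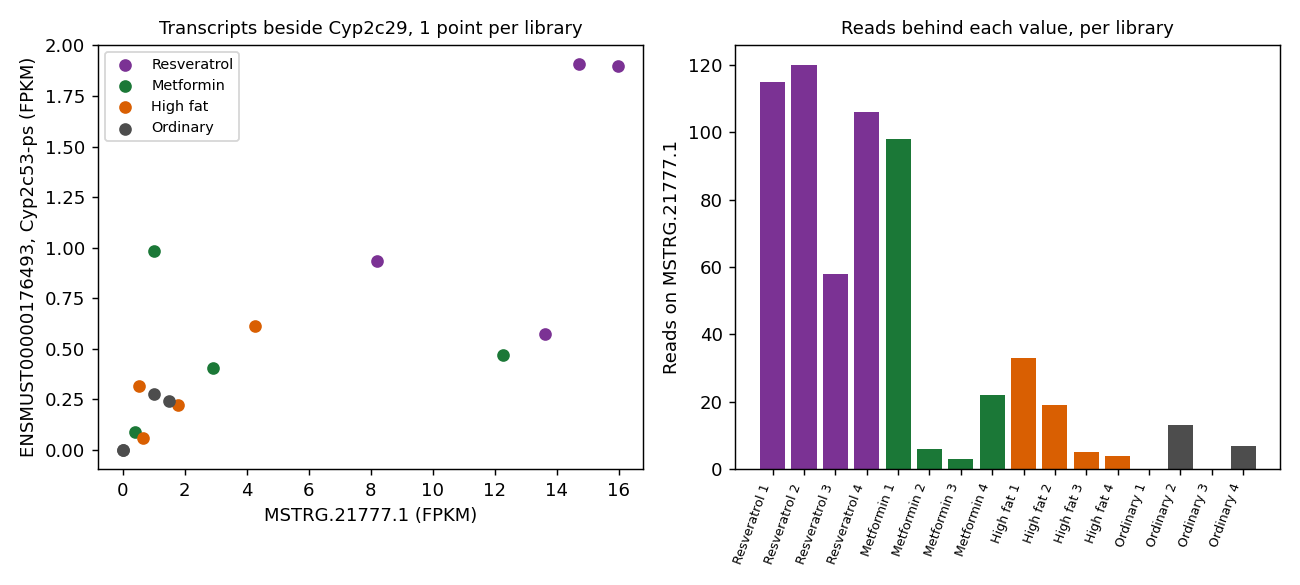
Left, FPKM of MSTRG.21777.1 and of the Cyp2c53-ps transcript ENSMUST00000176493, 1 point per library, coloured by group. Right, reads behind MSTRG.21777.1 in each library, between 58 and 120 in resveratrol livers and between 0 and 13 in ordinary-feed livers, with metformin library 1 at 98.

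Beside this result, the summed hepatocyte-linked transcripts did not overlap either. They reached 122 to 171 FPKM in resveratrol livers and 82.5 to 119 FPKM in ordinary-feed livers. A single transcript, MSTRG.9776.37 at Serpina1a and Serpina1b, weighs heavily in these sums. It averaged 62.7 FPKM over the 16 libraries, and the next highest of the list averaged 13.3 FPKM. Of that list's 14 tested transcripts, 14 had positive fold changes and 0 passed the test between these groups. The part of these lists in the result was not tested. In bulk liver a different number of cells of a type and a different amount of RNA per cell cannot be told apart. Among the other Cyp2c genes, 1 of 2 linked transcripts was tested, MSTRG.21790.19 at Cyp2c38. It averaged 0.952 ± 0.263 FPKM in resveratrol livers, 1.24 ± 0.622 in metformin livers, 0.855 ± 0.639 in high-fat livers and 3.75 ± 1.98 FPKM in ordinary-feed livers (SD, n = 4 each). Its resveratrol against ordinary fold change was -1.20 (limma adjusted p = 0.0972), opposite in sign to that of MSTRG.21777.1.

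Between high-fat and ordinary-feed livers, 0 of the 10 tested transcripts were called by limma, with 3 at an unadjusted p under 0.05. Over all tested transcripts 14.6% were called, 210 higher and 877 lower, and 32.2% had an unadjusted p under 0.05. With median-ratio scaling of the libraries the split was 393 higher and 463 lower, and the median fold change of all tested transcripts was -0.03 in place of -0.16. The members' median was -0.03 on the deposited scale, 5 positive and 5 negative, between -0.66 and 0.72. At 3 members the high-fat and ordinary-feed groups did not overlap, higher in high-fat livers at Abca1 and Cyp2a5 and lower at Slco1a1, against 21.0% of all tested transcripts, 3.64% higher and 17.3% lower. These 3 are also the members with an unadjusted p under 0.05. Transcripts linked to periportal hepatocyte markers summed to 13.3 to 15.3 FPKM in high-fat livers and 18.3 to 34.9 FPKM in ordinary-feed livers. Of 3 tested, 2 were called lower. Those linked to pericentral hepatocyte markers overlapped, at 3.26 to 15.8 FPKM in high-fat livers and 6.37 to 9.58 FPKM in ordinary-feed livers. The 1 tested transcript of the pericentral list had a fold change of 0.23 and was not called. Transcripts linked to the hepatocyte list overlapped in their sums, with 3 of 14 tested called higher, 10 positive and 4 negative, and a median of 0.31. Of those 3 calls, 2 share interval bases at Hnf4a and are not independent. The part of these markers in the members' differences was not tested.

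**Figure D3:**
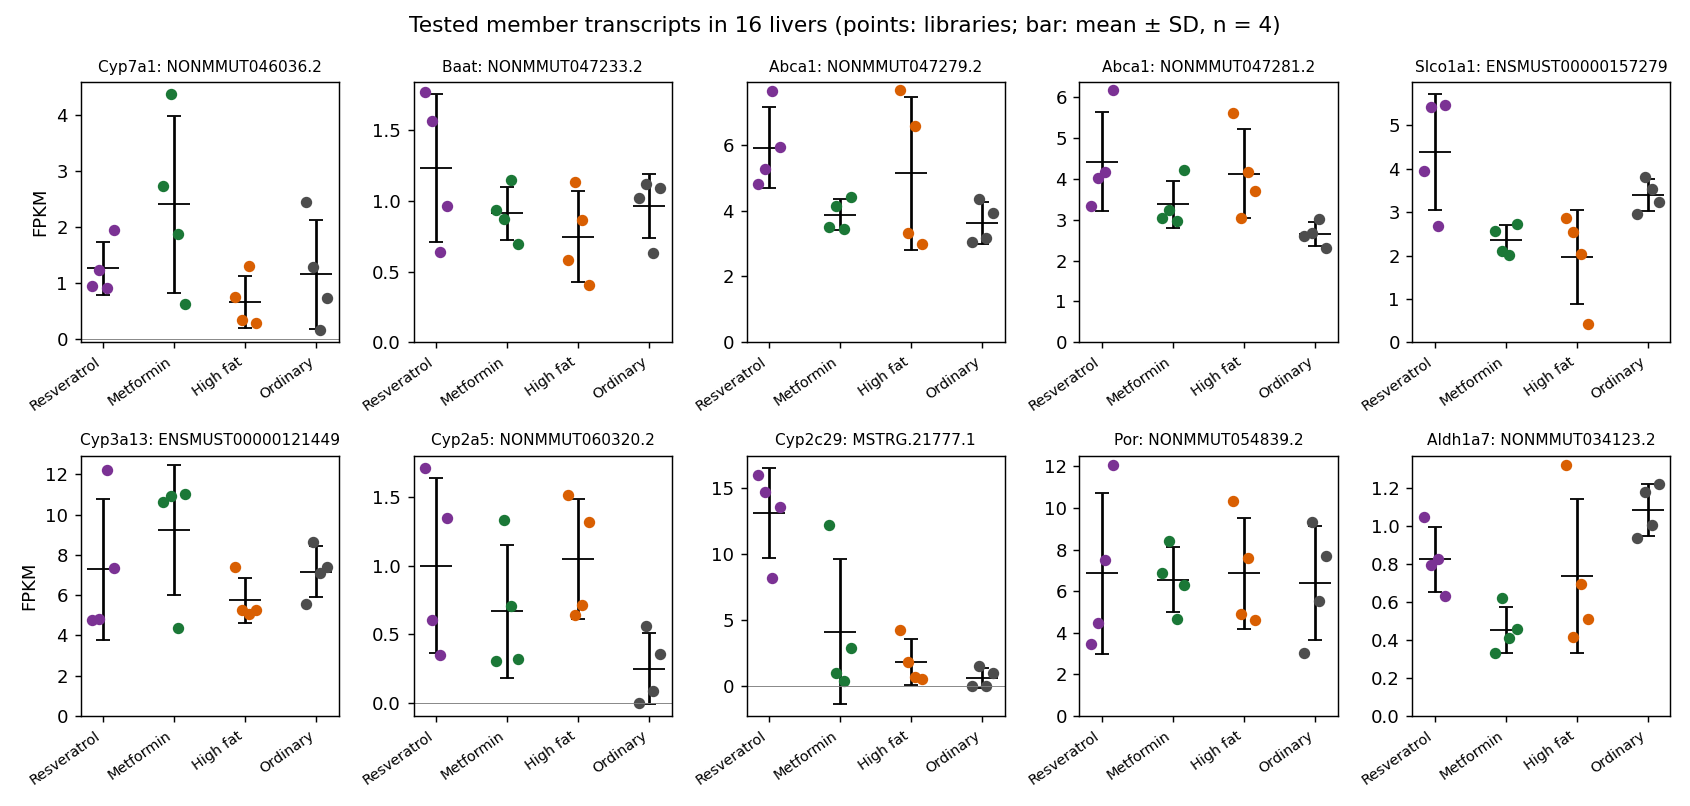
FPKM of the 10 tested transcripts in each library, with the mean and SD of each group (n = 4). MSTRG.21777.1 reaches 8.19 to 15.99 FPKM in resveratrol livers and at most 1.49 FPKM in ordinary-feed livers, while most other panels overlap between groups.

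Abca1 exports cholesterol and phospholipid to apolipoprotein A-I and is a known target of the liver X receptors. Its transcript NONMMUT047281.2, at chr4:53157306-53159892, covers the first exon and part of the first intron, with 217 of its 2587 bases in annotated untranslated exon. NONMMUT047281.2 had 3.34, 4.02, 4.18 and 6.18 FPKM in resveratrol livers, 3.06, 3.25, 2.98 and 4.22 FPKM in metformin livers, 5.63, 3.04, 4.16 and 3.70 FPKM in high-fat livers, and 2.60, 2.68, 3.02 and 2.30 FPKM in ordinary-feed livers. Every resveratrol and every high-fat library lay above every ordinary-feed library, with 1 high-fat library at 3.04 FPKM just over the highest ordinary-feed value of 3.02 FPKM. The fold change was 0.47 for high fat against ordinary feed (SE 0.17, limma adjusted p = 0.0739) and 0.55 for resveratrol against ordinary feed (SE 0.17, limma adjusted p = 0.184). With median-ratio scaling the high-fat difference was called at 0.64 (limma adjusted p = 0.0340), and over the 14 alternatives the limma adjusted p lay between 0.0340 and 0.273.

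The second Abca1 transcript, NONMMUT047279.2 at chr4:53133624-53137088, lies wholly in an intron 22.8 kb into the gene. NONMMUT047279.2 had 4.80, 5.27, 7.64 and 5.94 FPKM in resveratrol livers, 3.496, 4.13, 3.45 and 4.40 FPKM in metformin livers, 7.65, 3.32, 6.57 and 2.97 FPKM in high-fat livers, and 3.05, 4.36, 3.16 and 3.93 FPKM in ordinary-feed livers. The high-fat libraries fell into a high and a low pair that together spanned the whole range of the other groups. Resveratrol livers did not overlap metformin or ordinary-feed livers, with fold changes of 0.49 against metformin (SE 0.23, limma adjusted p = 0.776) and 0.57 against ordinary feed (SE 0.23, limma adjusted p = 0.291). Between resveratrol and metformin, 4.72% of all tested transcripts and 2 of the 10 members were without overlap. The 2 Abca1 transcripts correlated with r = 0.72 over the 16 libraries.

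Slco1a1 is an uptake transporter of bile salts and other organic anions on the blood-facing side of hepatocytes. Its intronic Gm22036 transcript, ENSMUST00000157279, had 3.96, 5.43, 2.68 and 5.48 FPKM in resveratrol livers, 2.57, 2.11, 2.02 and 2.72 FPKM in metformin livers, 2.87, 2.54, 2.04 and 0.424 FPKM in high-fat livers, and 2.97, 3.81, 3.54 and 3.23 FPKM in ordinary-feed livers. High-fat and metformin livers lay wholly below ordinary-feed livers, though by a small margin, with a highest high-fat value of 2.87 FPKM and a lowest ordinary-feed value of 2.97 FPKM. The fold change was -0.66 for high fat against ordinary feed (SE 0.26, limma adjusted p = 0.0989) and -0.39 for metformin against ordinary feed (SE 0.26, limma adjusted p = 0.427). Resveratrol against high fat gave 0.92 (SE 0.26, limma adjusted p = 0.164) with overlapping groups. High-fat library 4, which stands apart in its whole profile, held the lowest value at 2 reads, and leaving that library out under median-ratio scaling, the fold change of high fat against ordinary feed was -0.25 and that of resveratrol against high fat was 0.54.

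Baat conjugates bile acids with taurine or glycine. Its tested transcript NONMMUT047233.2, 2.24 kb downstream at chr4:49486639-49487182, had 1.77, 1.56, 0.635 and 0.962 FPKM in resveratrol livers, 0.936, 0.875, 1.15 and 0.693 FPKM in metformin livers, 0.583, 1.13, 0.867 and 0.401 FPKM in high-fat livers, and 1.02, 1.12, 0.629 and 1.09 FPKM in ordinary-feed livers. All groups overlapped, with 4 to 17 reads behind each value. The limma adjusted p was between 0.336 and 0.938 over the 6 comparisons, with fold changes of -0.18 to 0.34. NONMMUT114950.1, the Baat transcript whose multi-part interval spans the coding exons, was under the filter and had 4.65 FPKM in high-fat library 4, with 0.340 to 0.464 FPKM in the other high-fat libraries.

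Cyp7a1 is the rate-limiting enzyme of bile acid synthesis. NONMMUT046036.2, 0.99 kb downstream of it at chr4:6262194-6264622, had 0.948, 1.23, 0.913 and 1.94 FPKM in resveratrol livers, 2.74, 4.37, 1.88 and 0.617 FPKM in metformin livers, 0.745, 0.339, 1.29 and 0.289 FPKM in high-fat livers, and 2.45, 1.28, 0.151 and 0.734 FPKM in ordinary-feed livers. Of the metformin libraries, 3 lay above every high-fat library and 1 lay within their range. Metformin against high fat gave a fold change of 0.94 (SE 0.36, limma adjusted p = 0.525), and it was the only member with an unadjusted p under 0.05 in that comparison. By limma 0.0268% of all tested transcripts were called there and 7.55% had an unadjusted p under 0.05, against 0 and 1 of the 10 members. The other Cyp7a1 transcripts, NONMMUT046037.2 and the pseudogene transcript ENSMUST00000119150, stayed at or under 0.322 FPKM.

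Cyp2a5 oxidises coumarin and nicotine. NONMMUT060320.2 ends 0.465 kb upstream of it, at chr7:26832606-26834840. It had 1.71, 0.604, 0.347 and 1.34 FPKM in resveratrol livers, 0.307, 1.33, 0.706 and 0.325 FPKM in metformin livers, 1.52, 0.639, 0.712 and 1.32 FPKM in high-fat livers, and 0, 0.564, 0.0861 and 0.359 FPKM in ordinary-feed livers. No ordinary-feed library reached 1 FPKM, so the transcript passed the filter through the groups on high-fat diet. The high-fat libraries lay above all ordinary-feed libraries, on 9 to 19 reads against 0 to 8, with a fold change of 0.71 (SE 0.25, limma adjusted p = 0.0705). Its interval shares bases with NONMMUT126546.1, NONMMUT060319.2 and NONMMUT126545.1, all under the filter. NONMMUT126546.1 was listed at 0 in all 4 ordinary-feed libraries and at 0.140 to 0.940 FPKM in high-fat libraries, on 1 to 7 reads. NONMMUT060319.2 went the other way, averaging 0.0226 FPKM in high-fat livers and 0.0417 FPKM in ordinary-feed livers, the latter on 10 reads in 1 library. NONMMUT126545.1 averaged 0.0232 and 0 FPKM, and NONMMUT151493.1, also upstream of Cyp2a5, 0.154 and 0.136 FPKM, in the same order.

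Por passes electrons to the microsomal P450 enzymes, and its intron holds NONMMUT054839.2 at chr5:135709750-135713211, the member with the most reads at 180 to 955 per library. NONMMUT054839.2 had 3.44, 4.46, 7.48 and 12.04 FPKM in resveratrol livers, 6.89, 8.42, 4.65 and 6.29 FPKM in metformin livers, 10.3, 4.89, 7.60 and 4.63 FPKM in high-fat livers, and 3.01, 9.31, 5.52 and 7.69 FPKM in ordinary-feed livers. The spread within groups was larger than the distance between them, and the limma adjusted p was between 0.845 and 0.993 in the 6 comparisons, with fold changes of -0.07 to 0.12 (SE 0.35). The intronic NONMMUT149216.1, 12.4 kb into the same gene and under the filter, followed it with r = 0.85 over the 16 libraries. That was the highest r of NONMMUT054839.2 with another Por transcript, and the rest were between 0.17 and 0.66.

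Cyp3a13 is a P450 of the family that oxidises steroids and many drugs. The Gm15502 transcript ENSMUST00000121449 in its intron had 4.77, 4.81, 12.2 and 7.35 FPKM in resveratrol livers, 10.6, 10.9, 4.38 and 11.02 FPKM in metformin livers, 7.42, 5.25, 5.05 and 5.26 FPKM in high-fat livers, and 5.57, 8.62, 7.10 and 7.40 FPKM in ordinary-feed livers. Metformin library 3 lay below every other library while the other metformin libraries lay above all but 1 of the rest. Metformin against high fat gave 0.54 (SE 0.29, limma adjusted p = 0.681), and no comparison of this transcript had a limma adjusted p under 0.532. With the sequence it shares with Vdac1, its level is uncertain, since the sources used here do not say how reads matching both genes were assigned.

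Aldh1a7 is an aldehyde dehydrogenase. Its intronic transcript NONMMUT034123.2, at chr19:20723980-20726821, had 1.05, 0.793, 0.828 and 0.630 FPKM in resveratrol livers, 0.329, 0.619, 0.412 and 0.459 FPKM in metformin livers, 1.32, 0.418, 0.693 and 0.513 FPKM in high-fat livers, and 0.938, 1.18, 1.01 and 1.22 FPKM in ordinary-feed livers. The metformin libraries lay below all resveratrol and all ordinary-feed libraries. The transcript reached 1 FPKM in 5 libraries, most of them ordinary-feed and none metformin, so it passed the filter mainly through the group where it is high. Metformin against ordinary feed gave -0.52 (SE 0.14, limma adjusted p = 0.0785), against 0.295% of tested transcripts called and 13.4% without overlap between those groups. This was 1 of 2 members without overlap there, beside Gm22036. High-fat library 1 lay above every ordinary-feed library, and without it the high-fat against ordinary-feed difference was called at -0.44 (limma adjusted p = 0.0287), with a limma adjusted p of 0.0287 to 0.440 over the 14 alternatives. The other Aldh1a7 transcript, NONMMUT034122.2, was under the filter. Its average was higher in high-fat livers, at 0.736 ± 0.426 FPKM, than in ordinary-feed livers, at 0.638 ± 0.116 FPKM (SD, n = 4 each). In metformin livers it was lower, at 0.446 ± 0.112 FPKM (SD, n = 4).

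**Figure D4:**
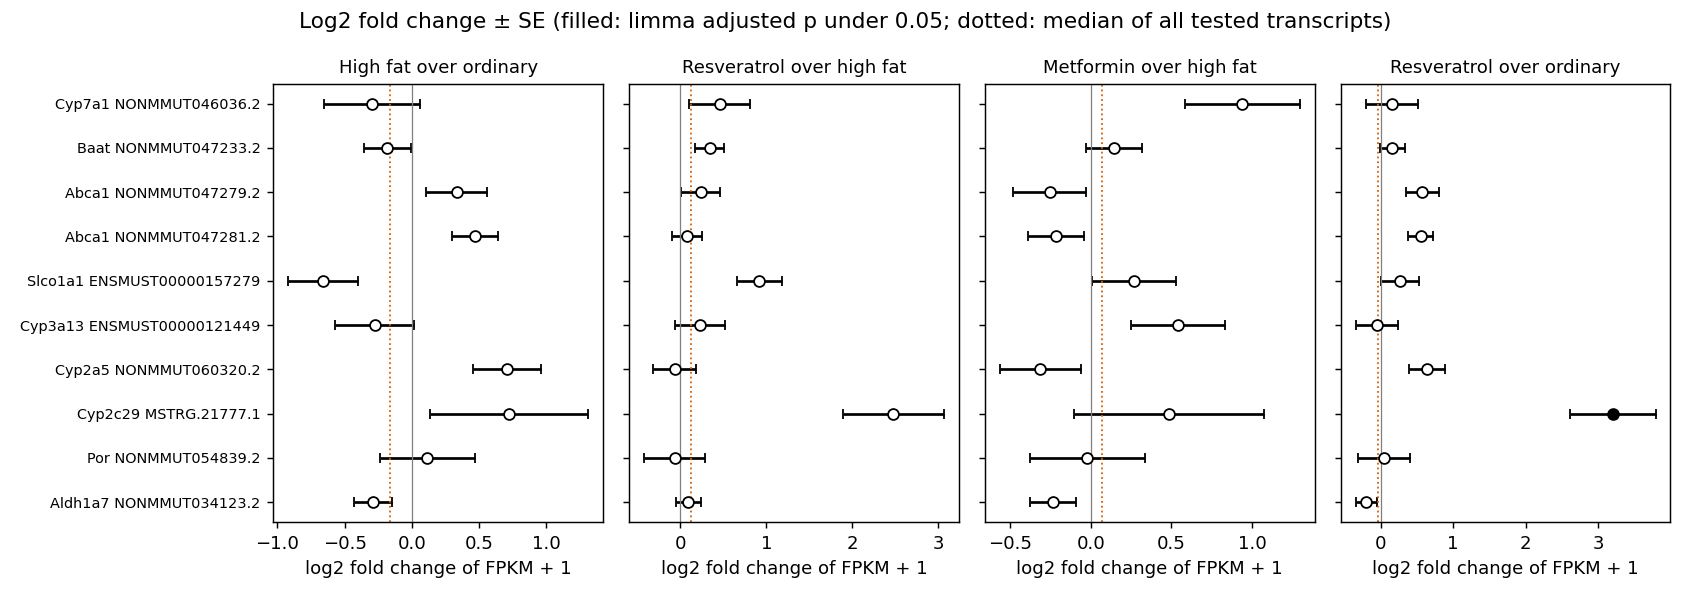
Log2 fold change of FPKM + 1 with its SE for the 10 tested transcripts in 4 comparisons, with the median of all 7455 tested transcripts as a dotted line. The filled point is the only call at a limma adjusted p under 0.05, MSTRG.21777.1 for resveratrol over ordinary feed.

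Across the 10 tested members, resveratrol against high fat gave 8 positive and 2 negative fold changes with a median of 0.23, beside a median of 0.13 for all tested transcripts. Metformin against high fat gave 5 positive and 5 negative, median 0.06, beside 0.07 for all. Resveratrol against metformin gave 7 positive and 3 negative, median 0.27, beside 0.06 for all, and 0% of tested transcripts were called there by limma, with 6.28% at an unadjusted p under 0.05 and 4 of the 10 members. A fit of those 2 groups alone called 1 transcript and a fit without the filter called 2, none of them a member. These comparisons share the high-fat, metformin or ordinary-feed livers, and the values are a description.

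**Figure D5:**
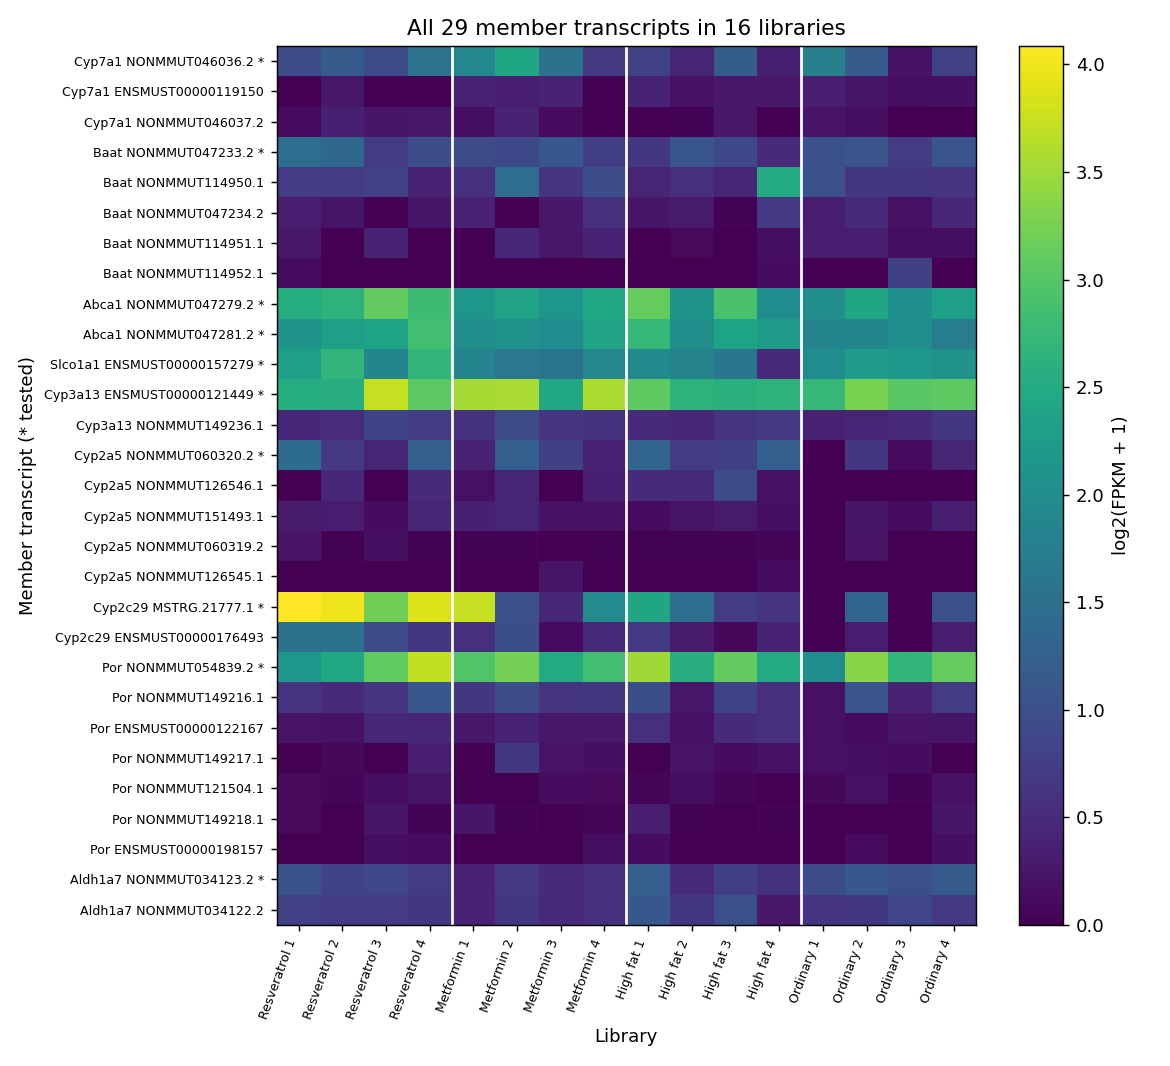
The 29 transcripts by gene (rows, a star marks the 10 tested) in the 16 libraries (columns), coloured by log2(FPKM + 1). Most of the rows without a star stay dark at under 1 FPKM, the MSTRG.21777.1 row is brightest in the resveratrol libraries and metformin library 1, and NONMMUT114950.1 at Baat stands out in high-fat library 4.

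Transcripts linked by the same 6 kb rule to lists of genes of these pathways were counted between high-fat and ordinary-feed livers. Over all tested transcripts, 2.82% were called higher there and 11.8% lower. The lists include the 9 member genes, so members at bile acid synthesis, transporter and phase I genes are counted again here. Of 15 tested transcripts at bile acid synthesis genes, 0 were higher and 1 was lower (6.67%), under the share over all transcripts, with a list median of -0.12. NONMMUT146430.1, 3.539 kb from the fatty acid and bile acid CoA ligase gene Slc27a2, averaged 4.13 ± 1.62 FPKM in high-fat livers and 18.4 ± 5.49 FPKM in ordinary-feed livers (SD, n = 4 each), a fold change of -1.94 (limma adjusted p = 0.00102). Of 8 at bile acid and sterol transporters, 0 were called and the median was 0.01. Of 22 at regulators of these pathways, 3 were higher (13.6%) and 1 was lower (4.55%), median 0.04, and 2 of the higher ones lie at Hnf4a. The interval of 1 of these, MSTRG.25288.3, lies inside that of the other, NONMMUT110083.1, so they are not independent readings. Both also count among the calls of the hepatocyte list. MSTRG.25288.3 at Hnf4a, a nuclear receptor that maintains hepatocyte gene expression, averaged 7.29 ± 2.84 FPKM in metformin livers, 6.31 ± 1.79 in high-fat livers and 1.55 ± 1.03 FPKM in ordinary-feed livers (SD, n = 4 each). It was called at 1.57 for high fat (limma adjusted p = 0.0118) and at 1.73 for metformin (limma adjusted p = 0.0496), both against ordinary feed. NONMMUT052486.2 at Klb, the co-receptor for the ileal hormone that restrains Cyp7a1, had a fold change of -1.01 for high fat against ordinary feed (limma adjusted p = 0.0157).

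Of 34 tested transcripts at phase I genes, which include the drug P450 genes, 0 were higher and 3 were lower (8.82%) in high-fat livers, median -0.18, beside 11.8% lower over all tested transcripts. They lay at Cyp2c38 (-1.33), Cyp3a25 (-1.08) and Cyp2f2 (-0.65). The Cyp2f2 transcript also counts among the calls of the periportal hepatocyte list. Of 24 at phase II genes, which conjugate the oxidised products, 1 was higher (4.17%) and 2 were lower (8.33%), median -0.06, beside 2.82% higher and 11.8% lower over all. The higher one lay at Sult5a1 (0.96), and the lower ones lay at Gstp3 (-0.45) and Sult1a1 (-0.47). The median of all tested transcripts in this comparison was -0.16. Against ordinary feed, resveratrol had 1 call in these lists, the member MSTRG.21777.1 already described, and metformin 1, MSTRG.25288.3. None of the 5 lists had a call in the comparisons among the 3 groups on high-fat diet.

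The tested transcripts elsewhere in the genome whose log2 values were most like each member's over the 16 libraries were found by Pearson's r, over points that share library and depth. For MSTRG.21777.1 they were NONMMUT005437.2 in Sec63 (r = 0.84), NONMMUT097128.1 in Enpp2 (r = 0.83) and NONMMUT030790.2 in Slc8a1 (r = 0.83). For the Gm22036 transcript in Slco1a1 they were NONMMUT000139.2 in Cspp1 (r = 0.90), NONMMUT024512.2 in Ppara (r = 0.89) and ENSMUST00000199734 in Cpeb2 (r = 0.89). The closest to the Cyp7a1 transcript was NONMMUT138856.1 at Crp (r = 0.86), and to the Por transcript ENSMUST00000160334 at Parp4 (r = 0.88). For the leading transcripts at the other genes the highest r was between 0.78 and 0.87.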

How the data were processed

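Liver RNA of mice was sequenced in 16 libraries, in 4 groups of 4. FPKM values per transcript were computed and deposited by the authors, in a file for each library. Per the submitters' processing notes, Cufflinks 2.1.1, Bowtie 0.12.2 and the GRCm38 (mm10) build were used. The sources used here do not give the annotation release, strand handling, filters or treatment of reads that match several places. Each value times its length was a whole number of reads, within 0.05 of a read, for at least 99.997% of values, which gave the library totals (17.2 to 31.1 M reads) and the reads quoted. These limit low values most.

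Transcripts were placed by interval against GENCODE M21, where 6243 of 6306 matching Ensembl IDs had identical coordinates. The files do not give the inner parts of multi-part transcripts, so exons were compared with whole intervals. Members and pathway lists were chosen with earlier results of these data known, and 1 gene of the phase II list is not reported here or counted in it. FPKM + 1 was log2-transformed, transcripts with at least 1 FPKM in at least 4 libraries were kept (7455), and 1 limma 3.58.1 fit with trend in R 4.3.3 covered all 16 libraries and 6 comparisons (12 residual degrees of freedom). Adjustment by Benjamini-Hochberg was over all tested transcripts. Fully described were the member with the highest mean at each gene, every called member and every member that passed the filter. Likeness was ranked among tested transcripts on another chromosome or over 1 Mb away. Alternatives were a pseudocount of 0.1, no filter, median-ratio scaling with and without high-fat library 4, Ensembl transcripts summed per gene, fits of 2 groups, and leaving out each library. The fit was tested on simulated data. Sequences were read with Python 3.11.15 and compared with Biopython 1.88. Replicates were numbered in accession order, and the labels give neither the mouse behind each library nor the housing, so p-values measure only the spread between these libraries.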

Additional observations from a re-analysis of the deposited data

Results flagged for a closer look

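In 4 of 48 groups of 4 libraries, for 12 transcripts, 1 library lay far from the other 3 of its group by Dixon's gap test. Chance gives about 1 in 20 such groups. The Gm15502 transcript ENSMUST00000121449 in Cyp3a13 had 4.38 FPKM in metformin library 3, with 10.6 to 11.02 FPKM in the other metformin libraries. It also had 7.42 FPKM in high-fat library 1, with 5.05 to 5.26 FPKM in the other high-fat libraries. The 12 transcripts include some that were under the filter and not tested, among them NONMMUT114950.1, whose interval spans the Baat coding exons. NONMMUT114950.1 had 4.65 FPKM in high-fat library 4 on 92 reads, with 0.340 to 0.464 FPKM in the other high-fat libraries. The same transcript had 1.03 FPKM in ordinary-feed library 1, with 0.551 to 0.581 FPKM in the other ordinary-feed libraries.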

How the results depend on the processing

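The call of MSTRG.21777.1 was the only member call on the deposited scale with all 16 libraries in the fit. In resveratrol against ordinary feed the count of member calls was 0 with a pseudocount of 0.1 and 0 with no filter, and 0 to 1 when 1 library was left out. In high fat against ordinary feed it was 1 with median-ratio scaling (Abca1) and 0 to 1 with 1 library left out (Aldh1a7). In the other 4 comparisons it was 0 in every leave-one-out fit.

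Over all tested transcripts, calls in high fat against ordinary feed numbered 1087, with 270 without the filter, 563 with median-ratio scaling and without high-fat library 4, 423 with 2 groups only, and 532 to 1180 with 1 library left out. Resveratrol against high fat had 6, with 2 without the filter, 18 with median-ratio scaling (5 higher and 13 lower, against 5 and 1), and 1 to 40 with 1 library left out. Metformin against high fat had 2, with 4 without the filter, 9 with median-ratio scaling, 9 with that scaling when high-fat library 4 was left out, and 1 to 7 with 1 library left out. Resveratrol against metformin had 0, with 2 without the filter, 1 with 2 groups only, and 0 to 1 with 1 library left out. Resveratrol against ordinary feed had 21, with 13 at a pseudocount of 0.1, 2 without the filter, 54 with median-ratio scaling and without high-fat library 4 (37 higher and 17 lower, against 11 and 10), and 0 to 19 with 1 library left out. Metformin against ordinary feed had 22, with 14 at a pseudocount of 0.1, 7 without the filter, 44 with median-ratio scaling (20 higher and 24 lower, against 7 and 15), 173 with that scaling when high-fat library 4 was left out, 12 with 2 groups only, and 2 to 30 with 1 library left out. Fits without the filter tested more transcripts and fits without a library had fewer samples. Why the other settings moved the counts was not tested.

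Of 840 alternative values for the 60 member comparisons, 792 kept direction and side of the threshold and 37 changed direction, in 15 comparisons where no value was called. With median-ratio scaling, resveratrol against high fat was -0.0708 at NONMMUT047281.2, and leaving out high-fat library 4 as well it was -0.0143 there and -0.0042 at NONMMUT047279.2. Metformin against ordinary feed was 0.0046 and 0.0057 at NONMMUT047233.2 under these settings, and metformin against high fat was -0.0670 at ENSMUST00000157279 under the second. With 1 library left out, the Por transcript NONMMUT054839.2 lay between -0.1483 and 0.3054 for high fat against ordinary feed, -0.3538 and 0.1645 for resveratrol against high fat, -0.1604 and 0.1758 for metformin against high fat, -0.3336 and 0.1846 for resveratrol against metformin, -0.2376 and 0.2807 for resveratrol against ordinary feed, and -0.1685 and 0.2852 for metformin against ordinary feed. Resveratrol against high fat lay between -0.0635 and 0.2100 at NONMMUT047281.2, -0.2285 and 0.1074 at NONMMUT060320.2, and -0.0304 and 0.3688 at ENSMUST00000121449. Resveratrol against ordinary feed lay between -0.3078 and 0.0914 at ENSMUST00000121449 and -0.1027 and 0.4251 at NONMMUT046036.2. Metformin against high fat lay between -0.1600 and 0.9269 at MSTRG.21777.1 and -0.0528 and 0.4284 at ENSMUST00000157279, and metformin against ordinary feed between -0.1239 and 0.0204 at NONMMUT047233.2. No paired analysis was possible because the labels give no shared replicate numbers.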
